A study of Mus musculus with 64 samples.

Results

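The hepatic acute phase response was described through 10 genes chosen by name, out of 55573 gene rows of the count table. They were the serum amyloid A genes Saa1, Saa2 and Saa3, the orosomucoid genes Orm1 and Orm2, the haptoglobin gene Hp, the fibrinogen chain genes Fga, Fgb and Fgg, and the lipocalin gene Lcn2, which was also followed in hippocampus. All 10 passed the filter on low counts and had enough reads in liver to be tested. The samples were livers of 20 male mice, aged 10 to 18 weeks, with 5 mice in each of 4 groups. The mice were F1 hybrids of C57BL/6J fathers and 129sv mothers carrying the Ube3a tm1Alb allele, a deletion of exon 5. Wild-type (WT) offspring were compared with Ube3a m-/p+ mice (AS), a model of Angelman syndrome that lacks UBE3A in neurons while other tissues keep the paternal copy. Each mouse carried a subcutaneous pellet for 5 days, either of cholesterol (vehicle) or with 20 mg of corticosterone (CORT), the main glucocorticoid of mice. Hippocampus of these mice was also sequenced, as was hippocampus of 24 further WT and AS mice (6 per group) that received CORT at 3 mg/kg, or vehicle, under the skin and were killed 3 h later. The CORT effect in AS set against that in WT mice addresses whether loss of maternal UBE3A, a coregulator of the glucocorticoid receptor (GR), alters the response to the hormone.

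Acute phase proteins are plasma proteins that hepatocytes make in larger or smaller amounts when cytokines such as interleukin 6 and interleukin 1 report an infection or an injury elsewhere. The cytokines act through STAT3, NF-kB and C/EBP factors, and glucocorticoids are known to act together with them on many of these genes. Glucocorticoids also damp the production of the cytokines themselves by immune cells.

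Between 18612550 and 20868924 reads were counted on genes in each liver, and levels are given in CPM, each gene's count scaled to the TMM-adjusted size of its library. The floor used here for counting error, a count of 3, corresponded to 0.144 to 0.161 CPM. The 5 hepatocyte markers (Alb, Apob, Cps1, Ttr and Hnf4a) were all present and summed to 89399 to 101659 CPM in WT vehicle, 86742 to 119226 in AS vehicle, 96509 to 111122 in WT CORT and 111401 to 133697 in AS CORT livers. Ube3a was lower in AS than in WT livers, at 33.01 ± 4.05 against 48.3 ± 4.96 CPM with vehicle and 34.9 ± 1.93 against 48.8 ± 4.01 CPM with CORT (mean ± SD, n = 5), with an adjusted p of 0.0191 and 0.0133 by edgeR's quasi-likelihood test. Its reads were summed over all exons and both alleles. Fkbp5, a GR target used to check the treatment, rose from 19.04 ± 12.5 to 205 ± 23.5 CPM in WT livers and from 16.6 ± 3.24 to 294 ± 62.9 CPM in AS livers (adjusted p = 2.06e-07 and 1.60e-08), and Tsc22d3, another GR target, rose in both genotypes (log2 change 1.25 in WT and 1.74 in AS, adjusted p = 2.47e-07 and 2.13e-09). The liver of mouse 9, an AS vehicle mouse, had the highest Saa1, Saa2, Orm1, Hp and Lcn2 of its group, and values without it are given beside these genes. In bulk tissue, fewer cells of a type and less RNA per cell cannot be told apart.

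Levels per kilobase of the longest coding transcript placed the members in 2 ranges in WT vehicle livers. Fgg (2014 ± 538 CPM per kb, mean ± SD, n = 5), Fga (1936 ± 498), Hp (1250.3 ± 86.9), Fgb (1239 ± 276) and Orm1 (875 ± 68.2) were abundant, and the neighbouring pairs Fgg and Fga, and Hp and Fgb, differed by less than their SD. Saa1 (41.2 ± 11.96 CPM per kb), Saa2 (11.01 ± 4.59), Orm2 (10.1 ± 2.60), Saa3 (3.42 ± 0.583) and Lcn2 (1.91 ± 0.522) were far lower, and Saa2 and Orm2 were within their SD of each other. With CORT the order changed at the top, where Hp reached 2433 ± 298 CPM per kb in WT and 2685 ± 558 in AS livers while Fgg, the next, stood at 2006 ± 312 and 2159 ± 406. In AS CORT livers Hp and Fgg differed by less than the SD of Hp. Lcn2, the lowest in WT vehicle livers, stood at 12.3 ± 3.39 CPM per kb in WT and 30.8 ± 8.21 in AS CORT livers, above Saa2, Orm2 and Saa3 in both genotypes and within the SD of Saa1 (11.4 ± 4.38) in WT. The 10 genes together took 1.61% ± 0.353 of all counts in WT vehicle livers and 1.64% ± 0.198 in WT CORT livers, and 1.76% ± 0.257 and 1.73% ± 0.231 in the corresponding AS livers, most of it from the fibrinogen chains.

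CORT moved the acute phase genes in opposite directions within the family. In WT livers 2 of the 10 rose (Hp and Lcn2) and 2 fell (Saa1 and Saa3), where 8.73% of the 12273 genes tested rose and 9.90% fell. In AS livers the same 2 rose and 3 fell (Saa1, Saa2 and Saa3), against 12.6% and 15% of all genes. Averaged over the genotypes, 3 rose (Hp, Lcn2 and Orm1) and 4 fell (Saa1, Saa2, Saa3 and Orm2), against 17.5% and 19.6% of all genes, and the 3 fibrinogen chains did not pass the test. The median log2 change of the 10 genes averaged over genotypes was -0.08, beside -0.003 over all genes tested. All these calls are from edgeR's quasi-likelihood test at an adjusted p under 0.05, adjusted over all genes.

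**Figure D1:**
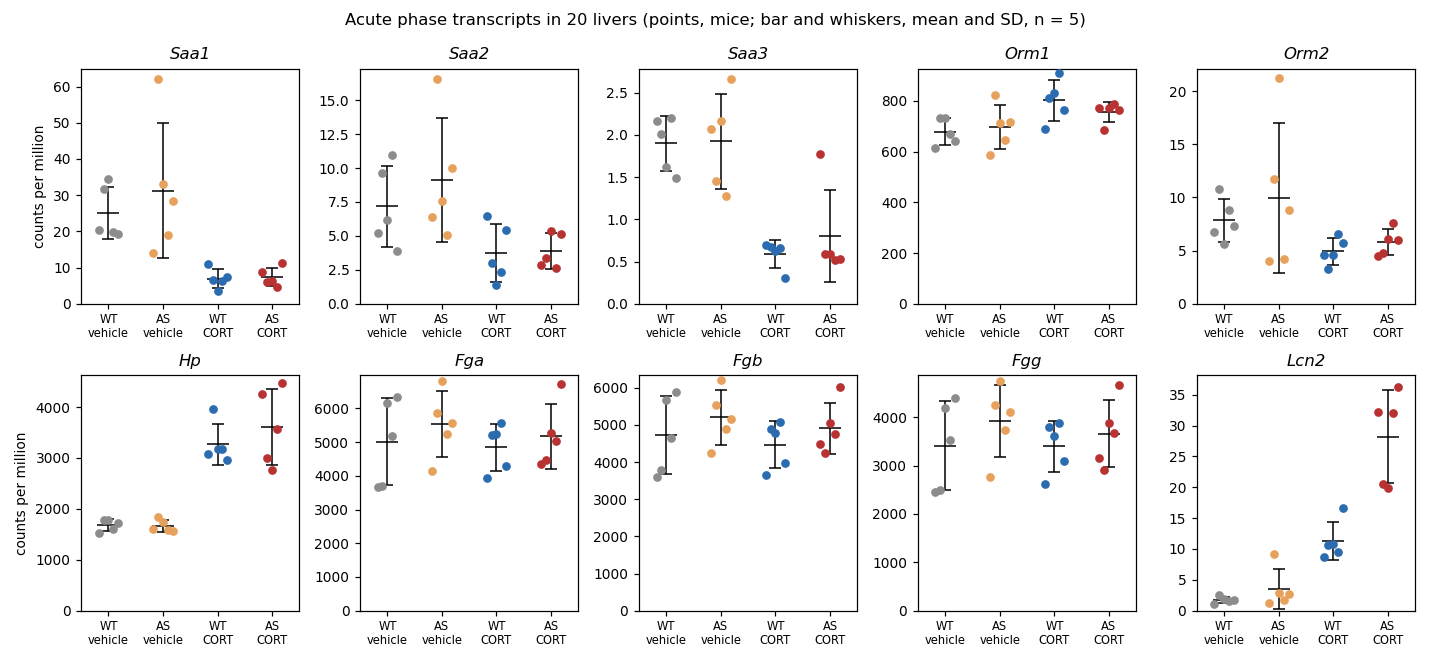
CPM of each acute phase gene in 20 livers, in 10 panels with their own scales from 0, where points are mice of the 4 groups, and bars with whiskers are the mean and SD (n = 5). Group means of Saa1, Saa2 and Saa3 are lower, and those of Hp and Lcn2 higher, with CORT, while Fga, Fgb and Fgg overlap between all 4 groups.

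Serum amyloid A proteins are small apolipoproteins that ride on high-density lipoprotein, and Saa1 and Saa2 are the forms that the mouse liver makes in bulk during inflammation. Saa1 (chr7:46740497-46742980, minus strand, GRCm38) and Saa2 (chr7:46751790-46754313, plus strand) lie head to head with 8810 bases between their starts. Their longest transcripts were identical at 96.7% of positions. Of the 2566 100-base windows of all annotated Saa1 transcripts, 230 (8.96%) occurred unchanged in Saa2. These windows come from exons that cover 2478 bases, whereas the longest coding transcript of Saa1 has 609. The shared part of the coding transcript alone was not computed and may be larger. A read within a shared window could not be placed by its own sequence. How pairs of such reads were placed was not tested, and the split between both genes is uncertain. Saa3 (chr7:46711998-46715700, minus strand), which macrophages and adipocytes also make, had a longest transcript identical to that of Saa1 at 49.3% of positions. These longest transcripts exceed the longest coding transcripts, of 609 bases for Saa1 and 555 for Saa3, whose identity was not computed.

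The sequences upstream of the RefSeq start sites are shown for these 3 genes because all of them fell with CORT averaged over genotypes. The near-identical upstream windows of Saa1 and Saa2 stand beside the less similar one of Saa3. They are the stretches from base -250 to base -51 (GRCm38.p6), chr7:46743031-46743230 on the minus strand for Saa1, chr7:46751583-46751782 on the plus strand for Saa2 and chr7:46715727-46715926 on the minus strand for Saa3, written 5′ to 3′ with matches to the searched motifs in capitals.
Saa1: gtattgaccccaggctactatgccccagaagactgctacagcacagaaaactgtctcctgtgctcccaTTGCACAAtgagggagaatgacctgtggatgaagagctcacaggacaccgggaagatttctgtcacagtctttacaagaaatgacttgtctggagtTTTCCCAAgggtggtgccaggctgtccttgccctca
Saa2: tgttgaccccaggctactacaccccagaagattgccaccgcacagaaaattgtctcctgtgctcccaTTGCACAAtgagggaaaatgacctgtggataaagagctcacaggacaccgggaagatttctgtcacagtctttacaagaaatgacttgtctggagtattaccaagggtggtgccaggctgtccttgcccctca
Saa3: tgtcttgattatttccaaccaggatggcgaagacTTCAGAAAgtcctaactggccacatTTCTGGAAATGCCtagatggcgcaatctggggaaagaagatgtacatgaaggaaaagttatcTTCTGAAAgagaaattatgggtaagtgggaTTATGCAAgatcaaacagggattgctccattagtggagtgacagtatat
Searched on both strands were ACANNNTGT (a GR half-site pair, GRE), TTCNNNGAA (STAT), TTNNGNAA (C/EBP) and GGNNTTTCC (NF-kB), which occurred in 5.84%, 7.01%, 36.8% and 4.93% of 32817 RefSeq windows of 250 bases. The capitals of Saa1 are 2 C/EBP matches, at -182 and -86, and that of Saa2 is 1, at -183. Those of Saa3 are 4 C/EBP matches, at -216, -191, -129 and -99, the second of which overlaps an NF-kB match at -187. Over the whole windows of 250 bases, Saa1 and Saa2 were identical at 95.2% of positions, and Saa1 and Saa3 at 53.2%. Windows were found for 8 of the 10 members, all but Orm1 and Hp. A match describes letters only and no binding was measured.

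Saa1 read 20.4, 31.7, 34.3, 19.9 and 19.3 CPM in the 5 WT vehicle livers and 14.1, 62.1, 33.01, 19.1 and 28.3 CPM in the 5 AS vehicle livers, the second AS value being mouse 9. With CORT it read 10.99, 6.63, 3.57, 6.30 and 7.30 CPM in WT and 8.80, 6.13, 6.43, 4.57 and 11.2 CPM in AS livers. Every CORT liver was below every vehicle liver in both genotypes. The log2 change was -1.85 ± 0.35 (SE, adjusted p = 0.000853) in WT livers, to 0.278 of the vehicle level, and -2.08 ± 0.35 (SE, adjusted p = 0.000178) in AS livers, to 0.237. Without mouse 9 the AS change was -1.67 with an adjusted p of 0.000486, and Saa1 passed under each of the alternatives run in both genotypes.

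Saa2 read 5.20, 9.65, 6.19, 10.9 and 3.90 CPM in WT vehicle livers and 6.40, 16.6, 7.58, 5.06 and 10.04 CPM in AS vehicle livers. With CORT the values were 6.44, 3.03, 1.40, 2.35 and 5.41 CPM in WT and 2.83, 3.41, 5.40, 2.65 and 5.14 CPM in AS livers. The groups overlapped in both genotypes, and the spread was wide, with an SD of 56.9% of the mean in WT CORT livers. Saa2 fell when averaged over genotypes, with a log2 change of -1.08 ± 0.27 (SE, adjusted p = 0.00385), and in AS livers, with one of -1.23 ± 0.39 (SE, adjusted p = 0.0222). In WT livers the change was -0.94 ± 0.39 (SE, adjusted p = 0.101). The AS call was lost without mouse 7, 9 or 16, with log2 changes of -1.13, -0.90 and -1.12 (adjusted p = 0.0575, 0.087 and 0.0561). The WT change passed with limma-voom, run with quality weights for each library here and below (adjusted p = 0.0489), and without mouse 3 (adjusted p = 0.0425), so the genotypes were not shown to differ. The interaction, the CORT effect in AS minus that in WT, was -0.29 ± 0.55 (SE, adjusted p = 0.891).

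Saa3 was the lowest of the 3, with 6 to 55 counts per liver. It read 2.17, 2.01, 1.62, 2.21 and 1.49 CPM in WT vehicle and 2.07, 1.46, 2.16, 1.28 and 2.67 CPM in AS vehicle livers. With CORT it read 0.693, 0.668, 0.621, 0.665 and 0.306 CPM in WT livers and 1.78, 0.584, 0.589, 0.520 and 0.535 CPM in AS livers. The WT groups did not overlap, and in AS livers 4 of the 5 CORT values lay below every vehicle value while mouse 7, at 1.78 CPM, lay among them. The log2 change was -1.67 ± 0.32 (SE, adjusted p = 0.000885) in WT livers and -1.26 ± 0.31 (SE, adjusted p = 0.00441) in AS livers. Without mouse 7 the AS change was -1.77.

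Markers of liver macrophages moved with the Saa genes. Of 6 Kupffer cell markers, 5 (Clec4f, Vsig4, Cd5l, Adgre1 and Timd4) fell with CORT averaged over genotypes and Marco did not pass the test. Their summed level was 114 to 153 CPM in WT vehicle and 151 to 211 CPM in AS vehicle livers, and 57.5 to 84.9 CPM and 57.6 to 85.5 CPM with CORT. The 4 adipocyte markers, of which Lep had no read in any liver, summed to at most 0.245 CPM. The 3 lymphocyte markers summed to 0.578 to 1.81 CPM in WT vehicle livers and 0.0495 to 0.308 CPM in WT CORT livers. The erythrocyte markers Hba-a1 and Hbb-bs also fell, with log2 changes of -0.990 and -0.999 averaged over genotypes (adjusted p = 0.00124 and 0.000999), and summed to 130 to 330 CPM in WT vehicle, 70.8 to 232 in AS vehicle, 66.3 to 163 in WT CORT and 53.4 to 72.2 in AS CORT livers. The part of any of these cells in the falls of Saa1, Saa2 and Saa3, or in the rise of Hp, was not tested.

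Orosomucoids, or alpha-1-acid glycoproteins, are small glycoproteins that carry lipids and drugs in plasma. Orm1 (chr4:63344560-63348163, plus strand) and Orm2 (chr4:63362449-63365878, plus strand) are neighbours whose longest transcripts were identical at 91.0% of positions, and 6.95% of the 100-base windows of either occurred in the other. A read lying within these windows could not be placed by its own sequence, and how pairs of such reads were placed was not tested. Orm1 was abundant and steady, with 614 to 732 CPM in WT vehicle, 588 to 823 in AS vehicle, 690 to 911 in WT CORT and 685 to 786 in AS CORT livers. These ranges overlapped. Averaged over genotypes it rose by a log2 change of 0.18 ± 0.06 (SE, adjusted p = 0.026), and the changes within a genotype were 0.24 ± 0.09 (SE, adjusted p = 0.0574) in WT and 0.12 ± 0.09 (SE, adjusted p = 0.336) in AS livers. The averaged call was lost with upper-quartile normalization (adjusted p = 0.0958) and without mouse 15 (adjusted p = 0.0546), and the WT change passed the threshold with the DESeq2 Wald test (adjusted p = 0.0377), with limma-voom (0.0249) and without mouse 2, 3, 4, 6 or 9 (adjusted p from 0.0254 to 0.0495). Without mouse 9 the AS change of Orm1 was 0.19 (adjusted p = 0.106).

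Orm2 was scarce, with 5.60 to 10.8 CPM in WT vehicle and 4.04 to 21.2 CPM in AS vehicle livers, and 3.24 to 6.55 and 4.50 to 7.64 CPM with CORT. Vehicle and CORT livers overlapped in both genotypes. The highest value was in mouse 11, an AS vehicle mouse. Averaged over genotypes it fell, with a log2 change of -0.72 ± 0.25 (SE, adjusted p = 0.0257), a call that was lost without mouse 11 (-0.49, adjusted p = 0.0633) and with limma-voom (adjusted p = 0.0701). Within genotypes the changes were -0.67 ± 0.35 (SE, adjusted p = 0.207) in WT and -0.78 ± 0.34 (SE, adjusted p = 0.0997) in AS livers. The WT change passed in a fit of only these 2 groups (adjusted p = 0.0476), and the AS change without mouse 2 (adjusted p = 0.0248) or 14 (adjusted p = 0.0353), and without mouse 11 it was -0.31. The third gene of the cluster, Orm3, stood at 3.14 ± 0.584 CPM in WT vehicle, 3.17 ± 0.974 in AS vehicle, 3.15 ± 1.21 in WT CORT and 9.54 ± 3.45 in AS CORT livers. It was higher in AS than in WT livers with CORT (log2 1.60 ± 0.26, SE, adjusted p = 0.00842) and its interaction was 1.59 ± 0.37 (SE, adjusted p = 0.387), so that the CORT effects were not shown to differ over all genes. Orm3 was singled out here after its values were seen.

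Haptoglobin binds free haemoglobin in plasma. Hp (chr8:109575128-109579172, minus strand) read 1516, 1785, 1776, 1605 and 1726 CPM in WT vehicle livers and 1602, 1832, 1738, 1593 and 1569 CPM in AS vehicle livers. With CORT it read 3081, 3969.7, 3182, 3174 and 2953 CPM in WT livers and 4257, 3003, 2760.0, 3564 and 4472 CPM in AS livers. Every CORT liver was above every vehicle liver. Hp rose 1.95-fold in WT (log2 change 0.96 ± 0.12, SE, adjusted p = 6.97e-06) and 2.17-fold in AS livers (log2 change 1.12 ± 0.12, SE, adjusted p = 6.86e-07). Under the alternatives the log2 change ranged from 0.87 to 0.98 in WT and from 1.03 to 1.20 in AS livers, with 1.15 without mouse 9. The SD was 6.95% and 6.83% of the mean with vehicle and 12.2% and 20.8% with CORT.

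Lipocalin 2 withholds iron from bacteria by binding their siderophores, and is made by hepatocytes, neutrophils and other cells in inflammation. Lcn2 (chr2:32384633-32388252, minus strand) was the member with the largest change with CORT in these livers. It read 1.15, 2.46, 1.87, 1.58 and 1.69 CPM in WT vehicle livers and 1.30, 9.24, 2.85, 1.67 and 2.76 CPM in AS vehicle livers. With CORT it read 8.76, 10.6, 10.8, 9.47 and 16.6 CPM in WT livers and 32.2, 20.5, 19.8, 32.1 and 36.3 CPM in AS livers. The CORT groups did not overlap with each other, and in WT livers every CORT value was above every vehicle value, as in AS livers, where mouse 9 was the highest vehicle mouse at 9.24 CPM. Lcn2 rose 6.41-fold in WT (log2 change 2.68 ± 0.40, SE, adjusted p = 8.62e-05) and 7.92-fold in AS livers (log2 change 2.99 ± 0.37, SE, adjusted p = 6.42e-06). Without mouse 9 the AS change was 3.71.

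AS livers had more Lcn2 than WT livers with CORT, 28.2 ± 7.51 against 11.2 ± 3.10 CPM (mean ± SD, n = 5), but the difference did not pass the threshold over all genes in the edgeR test of all 4 groups (log2 difference 1.32 ± 0.34, SE, adjusted p = 0.145). It passed in a fit of only both CORT groups (1.33, adjusted p = 0.0178), with limma-voom (1.34, adjusted p = 0.00339) and without mouse 9 (1.33, adjusted p = 0.0092), and did not with DESeq2 (1.33, adjusted p = 0.0863) or when any other mouse was left out. Over all alternatives the adjusted p ran from 0.00339 to 0.294. With vehicle the difference was 1.02 ± 0.42 (SE, adjusted p = 0.413), and 0.29 without mouse 9. The interaction was 0.30 ± 0.55 (SE, adjusted p = 0.886), and 1.05 without mouse 9 (adjusted p = 0.627), so that the rise with CORT was not shown to be larger in AS livers.

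Neutrophil markers were near the floor in every group but moved with this difference. Of 8 markers, Mpo had no read in any liver and Ly6g reached at most 0.0512 CPM, while S100a8 and S100a9 carried most of the sum. The summed level was 0.368 to 1.21 CPM in WT vehicle, 0.242 to 1.13 in AS vehicle, 0.102 to 0.563 in WT CORT and 1.15 to 1.55 in AS CORT livers, so that both CORT groups did not overlap. The part of neutrophils in the Lcn2 values was not tested.

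The fibrinogen chains assemble into the clotting protein that thrombin (F2) converts to fibrin. Fgg (chr3:83007724-83015049, plus strand), Fga (chr3:83026076-83033627, plus strand) and Fgb (chr3:83040141-83049863, minus strand) lie beside each other. No change of theirs with CORT passed the test. Fga ranged from 3677 to 6332 CPM in WT vehicle livers, 4149 to 6817 in AS vehicle, 3941 to 5566 in WT CORT and 4344 to 6724 in AS CORT livers. Fgb ranged from 3601 to 6203 CPM and Fgg from 2456 to 4746 CPM over the vehicle livers, with all CORT values inside these ranges. All 4 groups overlapped for each chain. Averaged over genotypes, the log2 changes were -0.07 ± 0.12 (SE, adjusted p = 0.675) for Fga, -0.08 ± 0.10 (SE, adjusted p = 0.573) for Fgb and -0.05 ± 0.13 (SE, adjusted p = 0.787) for Fgg.

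The 3 chains rose and fell together from mouse to mouse. Mouse 1, a WT vehicle mouse, had the lowest level of all 20 livers for each chain, and mice 11 (AS vehicle), 18 (AS CORT) and 17 (WT vehicle) had the 3 highest levels of each, in that order. The ratio of Fgb to Fga lay between 0.895 and 1.04 and that of Fgg to Fga between 0.653 and 0.737 in the 20 livers, while Fga itself ranged from 3677 to 6817 CPM.

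The letters ACANNNTGT stood upstream of 3 of the 8 members with a window, and the members that hold them did not share a response. They are shown for Fgb as the stretch from -250 to -51, chr3:83049914-83050113 on the minus strand, and for Lcn2 and Fga as 29 bases around the match, chr2:32387873-32387901 on the minus strand and chr3:83026057-83026085 on the plus strand (GRCm38.p6, RefSeq start sites, capitals as above).
Lcn2: aagtatttcaACAGAATGTactggcaatt
Fga: agagcacaggACACACTGTgagctttggc
Fgb: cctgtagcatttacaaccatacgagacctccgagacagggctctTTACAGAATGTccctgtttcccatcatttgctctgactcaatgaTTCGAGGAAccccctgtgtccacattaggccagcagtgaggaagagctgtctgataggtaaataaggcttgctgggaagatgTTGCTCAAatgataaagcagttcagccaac
The capitals of Fgb are a C/EBP match at -206 that overlaps the GRE match at -204, a STAT match at -162 and a C/EBP match at -80. The GRE match lies at -152 in Lcn2 and at -86 in Fga, and the same 9 letters stand in Lcn2 and Fgb. Lcn2 rose with CORT, and Fgb and Fga did not pass the test. No GRE match was found in the windows of Saa1, Saa2, Saa3, Orm2 and Fgg.

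**Figure D2:**
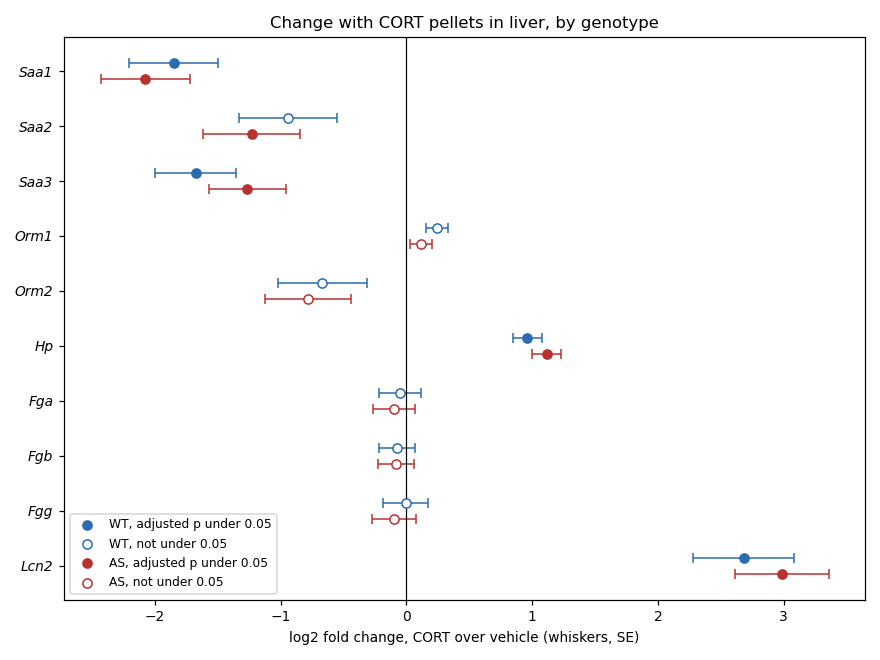
Log2 fold change of each acute phase gene with CORT over vehicle in WT and AS livers (n = 5 in each group), with whiskers for the SE, where filled points have an adjusted p under 0.05. Whiskers of both genotypes overlap for all 10 genes, from Saa1 (-1.85 and -2.08) to Lcn2 (2.68 and 2.99).

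The genotype comparisons passed for none of the 10 members in edgeR's test of all 4 groups. With vehicle 0 of 10 differed between AS and WT livers, where 0.0163% of all genes did (2 of 12273). Of the members 1, Lcn2, had an unadjusted p under 0.05, as did 1270 of the 12273 genes, and DESeq2 and limma-voom called no member. With CORT 0 of 10 differed, where 0.277% of all genes did (34 of 12273), with Lcn2 again the 1 member at an unadjusted p under 0.05, as were 1018 of the 12273 genes. Lcn2 was called by limma-voom but not by DESeq2. The interaction was called for 0 of 10 members and 0% of all genes, with 0 members and 995 of 12273 genes at an unadjusted p under 0.05. DESeq2 called the interaction for 9 genes and limma-voom for 1, none of them a member. The interactions of Saa1, -0.23 ± 0.49 (SE, adjusted p = 0.91), and Hp, 0.15 ± 0.16 (SE, adjusted p = 0.8), were smaller than 1 SE, and that of Saa1 was 0.19 without mouse 9.

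Spread within the groups linked some members across livers. After subtraction of each group's mean, log2 CPM of Saa1 was related to that of Saa2 (r = 0.704, rho = 0.674, n = 20 livers, permutation p = 0.00056 and 0.00148, adjusted p = 0.0053 and 0.0148 over 10 relations) and to that of Lcn2 (r = 0.686, rho = 0.597, permutation p = 0.00106 and 0.00576, adjusted p = 0.0053 and 0.0288). Without mice 2 and 9, the livers farthest from the median of Saa1, r was 0.657 for Saa2 and 0.383 for Lcn2, so that the relation with Lcn2 over all livers rested in part on these mice, while within vehicle livers alone r was 0.787 without them. Saa1 and Saa2 share sequence, and the part of misplaced reads in their relation was not tested. For Orm1 (r = 0.416), Hp (0.413), Orm2 (0.386), the fibrinogen chains (0.174 to 0.184) and Saa3 (0.0406) the adjusted permutation p was 0.175 or higher.

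The relations were also computed within each treatment. Within the 10 vehicle livers, r with Saa1 was 0.965 for Orm1 (rho = 0.915), 0.932 for Lcn2 (rho = 0.939) and 0.742 for Hp (rho = 0.612). The permutation p of r, adjusted over 9 relations, was 0.00018, 0.00072 and 0.0371. That of rho, before adjustment, was 0.00048, 0.0002 and 0.0675, so that Hp passed by r only. Without mice 2 and 9 the values of r were 0.905, 0.787 and 0.681. Within the 10 CORT livers r was -0.423, 0.142 and 0.334, each with an adjusted permutation p of 0.741, and no relation passed. For Saa2, r was 0.663 within vehicle and 0.764 within CORT livers (adjusted permutation p = 0.0863 and 0.0988). It was 0.434 without mice 2 and 9 and 0.443 without mice 3 and 12. The difference between vehicle and CORT livers was not tested.

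**Figure D3:**
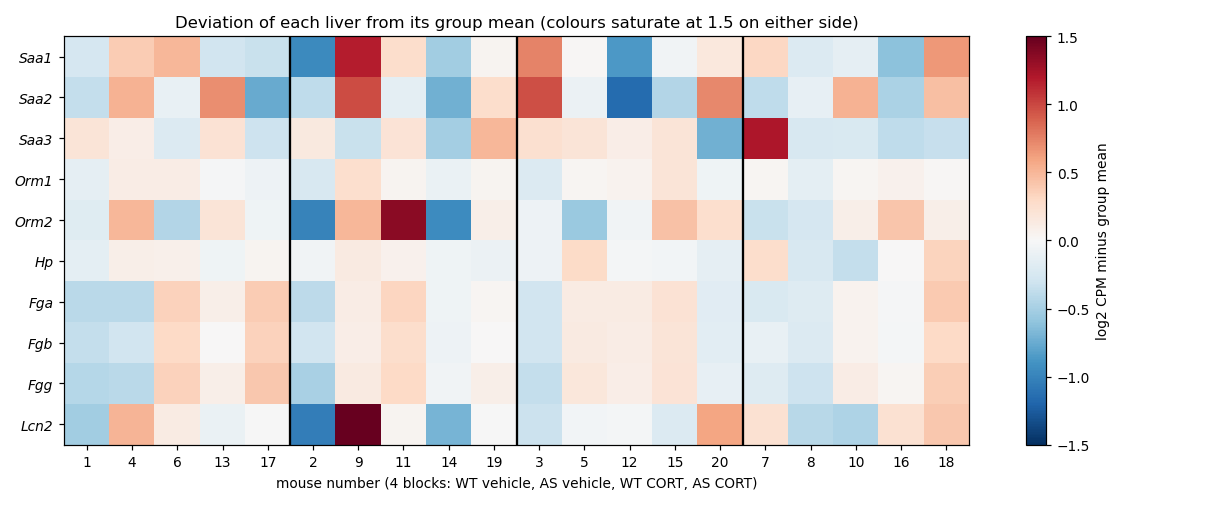
Deviation of log2 CPM of each acute phase gene (rows) from its group mean in 20 livers (columns, by mouse number, in blocks for WT vehicle, AS vehicle, WT CORT and AS CORT), in colours that saturate at 1.5. Mouse 9 is high for Saa1, Saa2 and Lcn2, and the rows of Fga, Fgb and Fgg share their pattern.

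The 5 tested genes outside the members that were most like Saa1 across livers, by Pearson's r of the same deviations over 20 livers, were Fancf (0.729), Ndufv3 (0.726), Map7d1 (0.720), Lrg1 (0.712) and Prg4 (0.709). Those most like Lcn2 included 2810002D19Rik (0.826), Lrg1 (0.813), Gstm2 (0.812) and Trappc1 (0.780). Both lists were picked as the highest r among 12273 genes tested, and whether such values exceed chance was not tested. Lrg1, a secreted acute phase glycoprotein, was on both lists and rose with CORT (log2 change 0.47 ± 0.09, SE, adjusted p = 0.000524).

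Of 19 other positive acute phase genes, which rise in inflammation, 10 rose and 3 fell averaged over genotypes, with a median log2 change of 0.24, beside -0.003 over all genes, of which 17.5% rose and 19.6% fell. In WT livers 6 rose and 1 fell, and in AS livers 10 rose and 2 fell, where 8.73% and 9.90% of all genes did so in WT and 12.6% and 15% in AS livers. Lbp, which hands lipopolysaccharide to CD14, rose from 74.4 ± 13.4 to 152 ± 11.1 CPM in WT livers and from 87.5 ± 15.5 to 188 ± 34.5 CPM in AS livers (log2 change 1.07 ± 0.10, SE, adjusted p = 6.19e-08). The copper carrier ceruloplasmin, Cp, rose by 0.69 ± 0.07 (adjusted p = 1.19e-07) and C-reactive protein, Crp, by 0.51 ± 0.06 (adjusted p = 1.34e-06). Haemopexin, Hpx, which clears free haem as haptoglobin clears haemoglobin, fell from 3362 ± 251 to 2432 ± 227 CPM in WT livers and from 3774 ± 332 to 2548 ± 199 CPM in AS livers, opposite to Hp. Its log2 change averaged over genotypes was -0.52 ± 0.06 (adjusted p = 5.85e-07).

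Of 9 negative acute phase genes, which fall in inflammation, 4 rose (F12, Rbp4, Trf and Alb) and 1 fell, with a median log2 change of -0.006 averaged over genotypes, while in WT livers 1 rose and 1 fell and in AS livers 3 rose and 1 fell. The shares over all genes were 17.5% rising and 19.6% falling averaged over genotypes, 8.73% and 9.90% in WT and 12.6% and 15% in AS livers. The gene that fell was Serpina6, corticosteroid-binding globulin, the plasma carrier of the hormone given, which went from 301 ± 130 to 67.8 ± 17.2 CPM in WT livers and from 319 ± 147 to 58.7 ± 4.01 CPM in AS livers (log2 change -2.30 ± 0.20, SE, adjusted p = 2.48e-08). Trf, the iron carrier transferrin, rose by 0.65 ± 0.18 (adjusted p = 0.00797), Rbp4, the carrier of retinol, by 0.25 ± 0.06 (adjusted p = 0.00335) and F12, clotting factor XII, by 0.18 ± 0.04 (adjusted p = 0.00075).

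Of the inflammatory signalling genes, 19 of 22 had enough reads, and 5 rose and 3 fell averaged over genotypes (median log2 change -0.04), beside 17.5% and 19.6% of all genes. The 5 that rose were the factors Cebpd (log2 change 1.79 ± 0.15, SE, adjusted p = 1.93e-08) and Cebpb (1.27 ± 0.23, adjusted p = 0.000197), the receptor chains of interleukin 1, Il1r1 (1.13 ± 0.13, adjusted p = 8.08e-07) and Il1rap (0.45 ± 0.05, adjusted p = 9.08e-07), and the interleukin 6 receptor Il6ra (0.99 ± 0.18, adjusted p = 0.00025). Cebpd stood at 2.99 ± 0.816 CPM in WT vehicle and 8.97 ± 1.53 CPM in WT CORT livers. Interleukin 1 beta, Il1b (-1.52 ± 0.29, adjusted p = 0.0003), the kinase Tyk2 (-0.23 ± 0.06, adjusted p = 0.00538) and the receptor of tumour necrosis factor Tnfrsf1a (-0.19 ± 0.04, adjusted p = 0.00172) fell. In WT livers 3 rose and 3 fell, where 8.73% and 9.90% of all genes did, and in AS livers 5 rose and 3 fell, where 12.6% and 15% did. Among those that did not pass were Stat3 (-0.08 ± 0.09) and its feedback inhibitor Socs3 (-0.51 ± 0.20, adjusted p = 0.0555). Il6 and Tnf had at most 3 and 5 counts in any liver and were not tested.

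Of 10 tested receptors and partners of the members, 2 rose and 3 fell averaged over genotypes (median log2 change -0.21), beside 17.5% and 19.6% of all genes. Tlr2, a receptor for serum amyloid A, fell (log2 change -0.96 ± 0.16, SE, adjusted p = 8.77e-05), as did Tlr4 (-0.60 ± 0.21, adjusted p = 0.0294). The Kupffer cell markers above fell beside Tlr2, Tlr4 and Il1b, with log2 changes from -0.84 for Clec4f to -1.42 for Timd4 in the 5 that passed, and their part in these falls was not tested. In WT livers 0 rose and 2 fell, where 8.73% and 9.90% of all genes did, and in AS livers 2 rose and 3 fell, where 12.6% and 15% did. Scarb1, the receptor of high-density lipoprotein, rose by 0.26 ± 0.06 (adjusted p = 0.001) and the prothrombin gene F2 by 0.16 ± 0.04 (adjusted p = 0.00572), while F13b, a subunit of the factor that cross-links fibrin, fell (log2 change -0.17 ± 0.05, adjusted p = 0.0056). Cd163, a macrophage receptor on this list, did not pass (0.11 ± 0.11, adjusted p = 0.474). Among 8 GR target genes 4 rose, Tsc22d3 and Fkbp5 above, Klf9 (0.41 ± 0.11, adjusted p = 0.00868) and Pck1 (0.94 ± 0.28, adjusted p = 0.0121), and 0 fell, with 2 rising in WT and 4 in AS livers, where 17.5% of all genes rose averaged over genotypes, 8.73% in WT and 12.6% in AS livers.

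**Figure D4:**
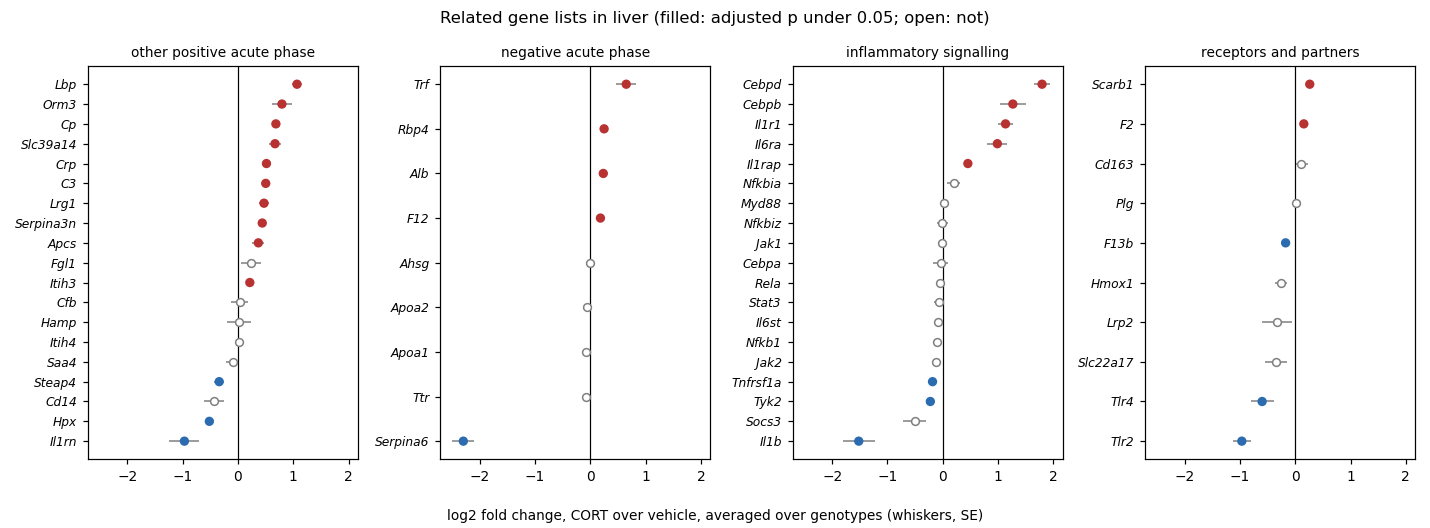
Log2 fold change with CORT over vehicle, averaged over genotypes, for the tested genes of 4 related lists in liver, with whiskers for the SE, where filled points have an adjusted p under 0.05 (red, higher, or blue, lower) and open points do not. Lbp is highest among the other positive acute phase genes, Serpina6 lowest among the negative ones and Cebpd highest among the signalling genes.

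In hippocampus Lcn2 was close to the limit of detection. At most 35 reads fell on it in any of the 42 libraries used (24 acute and 18 continuous, without H9 and H13, which the study left out), and the filter of more than 20 normalized counts in 3 replicates removed it, so that the values come from a fit without the filter. In the acute cohort the counts were 3, 4, 7, 1, 1 and 1 in WT vehicle, 5, 2, 35, 3, 1 and 1 in AS vehicle, 6, 5, 10, 6, 15 and 13 in WT CORT and 5, 7, 12, 7, 7 and 4 in AS CORT mice. All 12 CORT mice were above the floor of 3 counts, as were 4 of the 12 vehicle mice, and the third AS vehicle mouse, H15, held more than any other. The log2 change 3 h after CORT was 1.66 ± 0.64 (SE, adjusted p = 0.477) in WT and -0.23 ± 0.56 (SE, adjusted p = 0.908) in AS hippocampus by edgeR's test without a filter, and the interaction was -1.89 ± 0.85 (SE, adjusted p = 0.311). Two-sided exact permutation tests of CPM gave p = 0.00866 in WT (adjusted p = 0.0346 over 4 comparisons, mean 0.443 ± 0.204 against 0.136 ± 0.114 CPM, n = 6) and p = 0.998 in AS mice. H15 was left out after its value was seen. Without H15 the exact permutation p in AS mice was 0.00866 (mean 0.342 ± 0.134 against 0.117 ± 0.0811 CPM). It equalled the unadjusted p in WT mice and was itself not adjusted. In the edgeR fit without H15 the AS log2 change was 1.48 (adjusted p = 0.0928), the interaction -0.18 and the change averaged over genotypes 1.57 (adjusted p = 0.00284), against 0.72 (adjusted p = 0.487) with it.

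In the continuous cohort the counts were 0, 1, 1 and 1 in WT vehicle, 0, 6, 0 and 3 in AS vehicle, 1, 5, 2, 1 and 1 in WT CORT and 14, 13, 3, 7 and 2 in AS CORT hippocampus. Vehicle and CORT mice overlapped in both genotypes, and only 5 of the 18 libraries were above 3 counts. The log2 change was 1.27 ± 1.03 (SE, adjusted p = 0.697) in WT and 1.77 ± 0.71 (SE, adjusted p = 0.36) in AS mice, and the exact permutation tests gave p = 0.286 and 0.127. Neither change passed the threshold. Across the 18 mice with both tissues, no relation of hippocampal to hepatic Lcn2 passed the test after subtraction of group means, with only 5 of the 18 hippocampal counts above the floor of 3 (r = 0.312, rho = 0.382, permutation p = 0.203 and 0.115, adjusted p = 0.338 and 0.287, r = 0.0270 without mice 2 and 14). Most like Lcn2 in these sparse counts were Rnf180 (r = 0.761), Nradd, Cip2a, Hbb-bs and Rnf168 over 18 continuous and Oplah (r = 0.788), AV356131, Adck1, Smg8 and Pex14 over 24 acute libraries. They too were picked as the highest r among all genes tested, and whether they exceed chance was not tested.

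**Figure D5:**
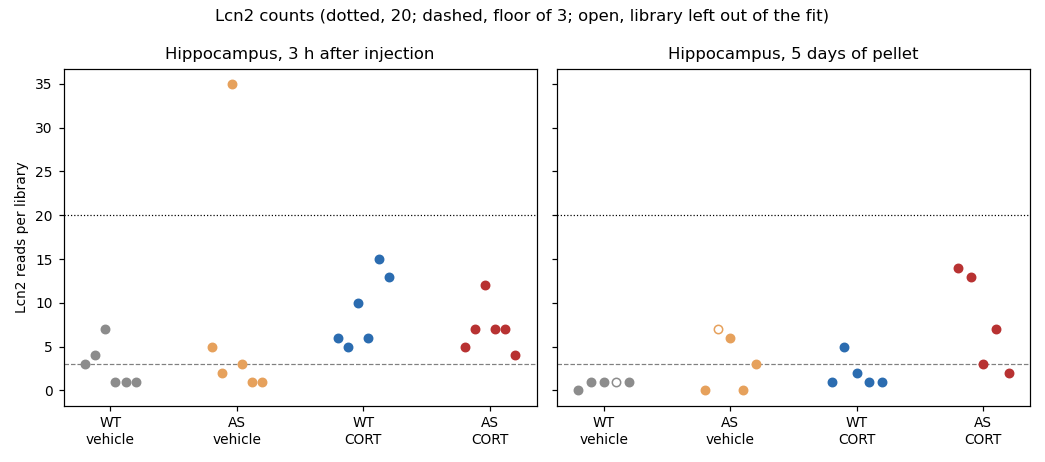
Reads on Lcn2 per hippocampal library (vertical axis) in the 4 groups of the acute (left) and continuous (right) cohort, where the dotted line is 20 reads, the dashed line the floor of 3, and open points are libraries left out of the fit. All 12 CORT mice of the acute cohort lie above 3 reads, and 1 AS vehicle mouse lies at 35.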

How the data were processed

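The authors made stranded mRNA libraries, sequenced them as paired reads of 100 bases, aligned them with STAR to mm10 and counted uniquely placed reads per gene with HTSeq-count, so the deposited values were raw counts per Ensembl gene. Libraries had 18612550 to 20868924 counts on genes in liver and 19049461 to 21783009 in hippocampus, and a further 6.71 to 8.44% of liver reads were not uniquely placed. The floor of 3 counts covers counting error only, while SD and SE are over mice. The strand setting and annotation release of the counting were not given in the sources used here. Genes above 20 median-of-ratios normalized counts in 3 or more mice of any group were kept (12273 in liver) and scaled by TMM in edgeR 4.0.16 (R 4.3.3) and tested by its quasi-likelihood F test in 1 fit of 4 groups, with Benjamini-Hochberg adjustment over all genes. CPM were scaled with the TMM factors, with a prior count of 2 where taken to log2. Alternatives were DESeq2 1.42.0, limma-voom with quality weights (limma 3.58.1), other normalizations, no filter, fits of 2 groups and leaving out each mouse. The fit without filter, the exact permutation tests and the left-out mice for hippocampal Lcn2 were chosen after seeing the data. The 10 members were fixed by name, related genes were named by the 4 lowest adjusted p of each list (Alb, Il6ra, Il1b, Tyk2, Tnfrsf1a, Stat3, Socs3, Tlr4, Cd163 and Orm3 after their values were seen), and members and lists were chosen with earlier results of these data known. Replicates are separate mice and differed by more than sampling noise. Symbols came from the gene names given with the reference, and positions are GRCm38. Of the genes most like Lcn2 in liver, 1 is not reported here.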

Additional observations from a re-analysis of the deposited data

Results flagged for a closer look

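In groups of 4 to 6 mice, the value of 1 mouse stood apart from the rest by Dixon's 95% criterion in 9 of 48 groups examined. Chance marks about 1 in 20 where values are normally distributed. CPM and small counts need not be, so that an excess of such mice was not shown. In liver these were Saa3 in WT CORT mouse 20 (0.306 CPM) and AS CORT mouse 7 (1.78 CPM), Orm1 in AS CORT mouse 8 (684.8 CPM), Hp in WT CORT mouse 5 (3970 CPM), and Lcn2 in AS vehicle mouse 9 (9.24 CPM) and WT CORT mouse 20 (16.6 CPM). The changes without mice 7 and 9 stand beside the results they touch. In hippocampus they were Lcn2 in the continuous WT vehicle mouse 1, listed at 0, where the other 3 libraries held 1 read each, the continuous WT CORT mouse 5 (0.233 CPM) and the acute AS vehicle mouse 15 (1.87 CPM).

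The hippocampal library H1 of a continuous WT vehicle mouse held reads of liver transcripts, with 16 on Orm1, 91 on Hp, 103 on Fga, 110 on Fgb and 88 on Fgg, beside 1931 on the albumin gene Alb. Library H2, of an AS vehicle mouse, held 665 reads on Alb and 16 on Hp, and the other 18 continuous libraries held at most 60 on Alb and at most 11 on any of Orm1, Hp and the fibrinogen chain genes. Neither H1 nor H2 held a read on Lcn2. The left-out library H9, of an AS vehicle mouse, held 7 reads on Lcn2, where the AS vehicle libraries used held at most 6.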

How the results depend on the processing

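The number of members changed by CORT stayed within 1.5 times the reported count under each alternative run, namely DESeq2, limma-voom with quality weights, DESeq2's size factors, upper-quartile normalization, no filter, fits of 2 groups and each mouse left out, and no called member changed sign. Saa1, Saa3, Hp and Lcn2 passed in both genotypes under every one of them, and the calls of Saa2, Orm1 and Orm2 that did not hold are given beside their values. Between AS and WT livers with CORT, 0 members passed, and 1 (Lcn2) in a fit of 2 groups and with limma-voom. With each mouse left out in turn the count was 0 to 1, and it was 1 without AS vehicle mouse 9. Of the relations with Saa1, by r, 2 passed over all livers (Saa2 and Lcn2), 3 within vehicle livers (Orm1, Hp and Lcn2) and 0 within CORT livers. By rho, Hp had a permutation p of 0.0675 within vehicle livers before adjustment. The r of Saa2 was 0.704 over all livers, 0.663 within vehicle livers and 0.764 within CORT livers.

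Counts over all genes moved more where few genes passed. Between AS and WT livers they were 2 with vehicle and 34 with CORT by edgeR, 42 and 93 by DESeq2, 2 and 78 by limma-voom, and with vehicle 0 in a fit of 2 groups. With 1 mouse left out they ran from 1 to 4 with vehicle and from 13 to 62 with CORT. The interaction was called for 0 genes by edgeR, 9 by DESeq2, 1 by limma-voom and 2 with no filter. The cause was not tested.

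In hippocampus Lcn2 was below the filter, so the alternatives that keep it (DESeq2, size factors, upper-quartile normalization, fits of 2 groups and limma-voom) gave no value for it, and the fit without filter is the one reported. With 1 mouse left out and no filter, the log2 change with CORT ran from 0.63 to 1.45 in WT and from 1.38 to 2.85 in AS mice of the continuous cohort, and from 1.48 to 2.14 in WT and from -0.46 to 1.48 in AS mice of the acute cohort. With all 20 continuous libraries it was 1.21 in WT and 1.31 in AS mice. No paired analysis was possible because the groups compared share no mouse numbers within a tissue, each mouse belonging to 1 group. Saa3 had the fewest reads of the members in liver, 6 to 55, and Lcn2 at most 35 in hippocampus.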

Other observations

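Further positive acute phase genes changed with CORT when averaged over genotypes, all by edgeR's quasi-likelihood test. The complement component C3 rose from 7287 ± 653 to 9641 ± 1025 CPM in WT livers and from 7543 ± 809 to 11431 ± 1378 CPM in AS livers (log2 change 0.50 ± 0.07, SE, adjusted p = 8.75e-06). The protease inhibitor Serpina3n rose by 0.44 ± 0.06 (adjusted p = 1.68e-05), the zinc and iron importer Slc39a14 by 0.67 ± 0.11 (adjusted p = 4.98e-05), serum amyloid P, Apcs, by 0.37 ± 0.11 (adjusted p = 0.0107) and Itih3, a heavy chain of the inter-alpha-trypsin inhibitor, by 0.21 ± 0.07 (adjusted p = 0.0216). The interleukin 1 receptor antagonist Il1rn and the metalloreductase Steap4 fell, with log2 changes of -0.97 ± 0.27 (adjusted p = 0.00847) and -0.34 ± 0.09 (adjusted p = 0.00797). Saa4, the constitutive member of the serum amyloid A cluster, had a log2 change of -0.10 ± 0.12 (adjusted p = 0.571) and hepcidin, Hamp, one of 0.02 ± 0.22 (adjusted p = 0.956), and neither passed. These genes were named after their values were seen.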
